A study of Sus scrofa with 12 samples.

Results

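The genes described here encode subunits of the mitochondrial respiratory chain and of ATP synthase, measured in the duodenal mucosa of pigs (Sus scrofa). They were chosen by name. Every probe set whose gene symbol in the array annotation begins with NDUF followed by A, B, C, S or V, is SDHA, SDHB, SDHC or SDHD, or begins with UQCR, with COX and a digit from 4 to 8, or with ATP5 was taken, and of several probe sets of a symbol the one with the highest mean stood for the gene. This gave 94 probe sets of 59 genes, among 47845 probe sets and 13755 named genes on the array. By complex, 25 of the 59 genes encode subunits of complex I, 3 of complex II, 2 of complex III, 8 of complex IV and 14 of complex V. The other 7 carry a matching name and are no subunit (NDUFAF1, NDUFAF2, NDUFAF3, NDUFAF4, NDUFA4L2, ATP5S and ATP5SL). NDUFA4, once assigned to complex I, was counted with complex IV.

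The study profiled 12 pigs, each 140 days old, on 1 Affymetrix Snowball array per pig. The labels give 6 pigs of high feed efficiency (FE, the growth obtained from a given amount of feed) and 6 of low FE, with 3 males and 3 females in each group. In both groups, pigs 1 to 3 are males and pigs 4 to 6 females, and the numbers only name the pigs. The labels name no other treatment, and how FE was scored is not given in the sources used here.

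Oxidative phosphorylation passes electrons from NADH (complex I) and succinate (complex II) through ubiquinone, complex III and cytochrome c to oxygen at complex IV. Complexes I, III and IV pump protons across the inner mitochondrial membrane, and complex V (ATP synthase) makes ATP as protons flow back. Core subunits of complexes I, III and IV and a part of complex V are encoded in mitochondrial DNA, and the remaining subunits in the nucleus, so each of these complexes is built from both genomes. The absorbing enterocytes of the duodenum use much of the ATP for ion pumping and nutrient uptake. The array annotation named none of the mitochondrially encoded subunits, nor NDUFV1, NDUFS8, CYC1, COX5A or COX8A, and these were not analysed here.

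All values are the deposited log2 values, each difference is that of high FE minus low FE, or of males minus females, and levels of different genes were not set against each other. Array medians lay between 3.83 and 3.91. The array holds 69 background probe sets that match no pig transcript, with medians per array between 2.16 and 2.53 and means of single probe sets between 1.21 and 7.62. Of the 59 genes, 31 had a mean within that range, where a value does not by itself show a transcript. Genes with a mean above the 30th percentile of probe sets, a log2 value of 2.37, were tested. This held for 57 of the 59, the lowest being NDUFA4 with a mean of 2.68, and not for ATP5I (1.56) and ATP5H (1.48). No genome build is named for the array, so no coordinates are given. The probe sets of the genes plotted by pig below were SNOWBALL_018657_st for NDUFS4, SNOWBALL_026801_s_st for SDHA, SNOWBALL_016779_s_st for UQCR10, SNOWBALL_016551_st for COX6A1, SNOWBALL_000921_st for ATP5B and SNOWBALL_027029_st for NDUFAF2. The labelled tissue was checked on enterocyte markers, of which 15 of 16 were tested. Their mean log2 value lay between 9.02 and 10.1 in high FE pigs and between 8.49 and 10.3 in low FE pigs. VIL1, the villin of the brush border, averaged 10.1 ± 0.28 in high FE and 9.96 ± 0.42 in low FE (SD, n = 6 each). Precision throughout is limited by the number of arrays, and in a bulk sample fewer cells of a type and less RNA per cell cannot be told apart.

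The first comparison asked whether these genes differ between pigs of high and low FE. Most had a lower mean in high FE by a small amount, and no single gene passed the test. Of the 57 genes tested, 47 had a lower mean in high FE (82.5%), against 54% of all probe sets tested and 58.2% of all named genes with 1 probe set each. The median difference over the 57 genes was -0.15, with a range from -0.55 (ATP5SL) to 0.52 (NDUFAF2), beside medians of -0.02 over all probe sets and -0.04 over all named genes. Among the 50 genes that encode subunits, 44 had a lower mean in high FE, and the median difference was -0.16.

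Limma with Benjamini-Hochberg adjustment over 33405 probe sets called 0 of the 57 genes, against 0% of all probe sets, and the lowest adjusted p was 0.753. At an unadjusted p under 0.05 stood 4 genes with a lower mean in high FE (COX6A1, NDUFS4, COX6B and COX7C), against 3.34% of all probe sets, and 2 with a higher mean (NDUFAF2 and ATP5S), against 2.65%. The 6 high and 6 low FE values overlapped in every one of the 57 genes, where 0.26% of all probe sets were without overlap.

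**Figure D1:**
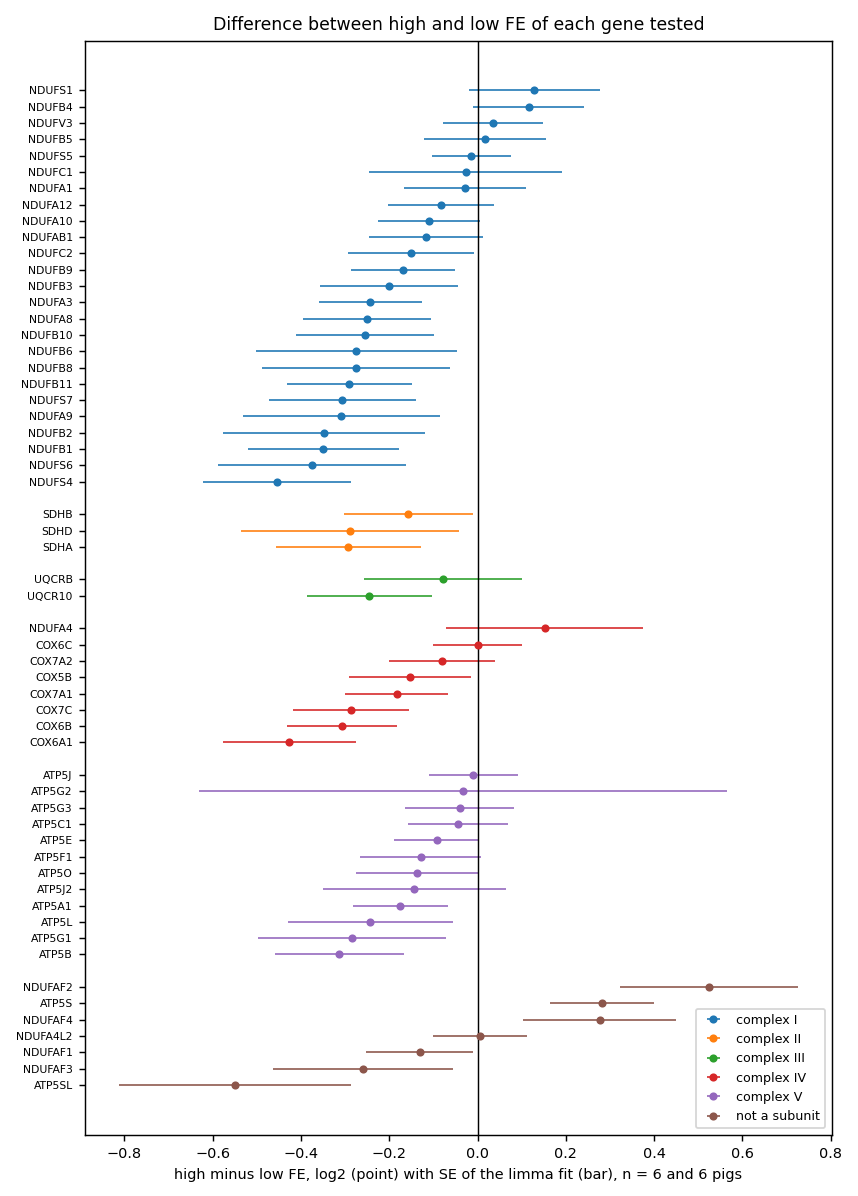
Difference between high and low FE on the log2 scale for each of the 57 genes tested (horizontal axis), grouped by complex. Points are high minus low FE from the limma fit with sex as a term, bars are 1 SE, n = 6 and 6 pigs. Most points lie left of 0, in 47 of 57 genes, and the points of the genes that are no subunit spread from -0.55 to 0.52.

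Complex I, which oxidises NADH, contributed 25 genes. Of these, 21 had a lower mean in high FE. Their median difference was -0.20, and none was called (lowest adjusted p 0.753). NDUFS4, an accessory subunit of the peripheral arm, ran from 4.95 over a median of 5.45 to 6.04 in high FE pigs, and from 5.57 over 6.03 to 6.22 in low FE pigs. Every low FE pig was above high FE pigs 1, 2, 3 and 5, while high FE pigs 4 and 6 lay in the low FE range. The NDUFS4 means were 5.53 ± 0.42 in high FE and 5.99 ± 0.25 in low FE (SD, n = 6 each), a difference of -0.45 ± 0.17 (SE, adjusted p 0.753), the most negative of complex I.

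Both core subunits of complex I that were found by name carry iron-sulphur clusters, and their differences had opposite signs. NDUFS7, next to the ubiquinone site, ran from 8.10 over 8.62 to 9.05 in high FE and from 8.70 over 8.92 to 9.04 in low FE, a difference of -0.31 ± 0.17 (SE). The 3 lowest pigs were high FE pigs 1, 2 and 5, and the highest was high FE pig 6. NDUFS1, the largest core subunit, ran from 7.21 over 7.60 to 7.76 in high FE and from 7.10 over 7.30 to 7.92 in low FE, a difference of 0.13 ± 0.15 (SE). Its groups covered nearly the same range, with low FE pig 1 highest.

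Among the accessory subunits, NDUFB11 of the membrane arm differed by -0.29 ± 0.14 (SE), with means of 6.26 ± 0.27 in high FE and 6.55 ± 0.15 in low FE (SD, n = 6 each). Below every low FE pig were again high FE pigs 1, 2 and 5. For NDUFA3, an accessory subunit with no catalytic role, the difference was -0.24 ± 0.12 (SE), with means of 7.25 ± 0.20 in high FE and 7.49 ± 0.10 in low FE (SD, n = 6 each). Here the low FE pigs were close together, and all but low FE pig 2 were above every high FE pig. NDUFB4, NDUFB5, NDUFS1 and NDUFV3 were the 4 complex I genes with a higher mean in high FE, by 0.02 to 0.13.

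Complex II, succinate dehydrogenase, links the citric acid cycle to the chain and is encoded in the nucleus alone. All 3 of its genes found by name had a lower mean in high FE. Their median difference was -0.29, and none was called. SDHA, the flavoprotein that oxidises succinate, ran from 8.98 over 9.40 to 9.84 in high FE and from 9.47 over 9.75 to 9.97 in low FE. Of the high FE pigs, 1, 2 and 5 were below every low FE pig, and the other 3 lay within the low FE range. The SDHA difference was -0.29 ± 0.16 (SE, adjusted p 0.753).

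SDHB, the iron-sulphur subunit, ran from 8.95 over 9.34 to 9.64 in high FE and from 9.15 over 9.55 to 9.62 in low FE, a difference of -0.16 ± 0.15 (SE). SDHD, a membrane anchor, ran from 7.14 over 7.93 to 8.45 in high FE and from 7.84 over 8.10 to 8.43 in low FE, a difference of -0.29 ± 0.25 (SE). High FE pig 3 had the highest value of all 12 pigs in either gene, so the high FE pigs held both ends of the range. Adjusted p-values were 0.79 for SDHB and 0.777 for SDHD.

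Complex III hands electrons from ubiquinol to cytochrome c. Its 2 genes found by name encode small accessory subunits, and both had a lower mean in high FE without passing. UQCR10 ran from 8.39 over 8.84 to 9.14 in high FE and from 8.94 over 9.05 to 9.19 in low FE, a difference of -0.24 ± 0.14 (SE, adjusted p 0.753). The low FE pigs were close together, and high FE pigs 1, 2, 4 and 5 were below all of them. UQCRB, which sits near the ubiquinone site, ran from 5.06 over 5.36 to 5.83 in high FE and from 5.12 over 5.46 to 6.02 in low FE, a difference of -0.08 ± 0.18 (SE, adjusted p 0.924), with the groups almost fully overlapping.

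Complex IV, cytochrome c oxidase, reduces oxygen. Of its 8 genes, 6 had a lower mean in high FE. The median difference over the 8 was -0.17, and none was called. It held 3 of the 4 genes with a lower mean in high FE at an unadjusted p under 0.05. COX6A1, the isoform of subunit VIa outside heart and skeletal muscle, ran from 9.35 over 9.70 to 10.03 in high FE and from 9.97 over 10.12 to 10.30 in low FE. High FE pig 3 was the 1 high FE pig within the low FE range, and the other 5 lay below it. Means were 9.70 ± 0.30 in high FE and 10.13 ± 0.17 in low FE (SD, n = 6 each), a difference of -0.43 ± 0.15 (SE, adjusted p 0.753).

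COX6B, subunit VIb, on the side of the intermembrane space, ran from 8.12 over 8.58 to 8.80 in high FE and from 8.70 over 8.81 to 9.12 in low FE, a difference of -0.31 ± 0.12 (SE, adjusted p 0.753). Again all high FE pigs but pig 3 were below every low FE pig. COX7C, a small membrane subunit, ran from 7.33 over 7.76 to 7.96 in high FE and from 7.75 over 8.01 to 8.27 in low FE, a difference of -0.29 ± 0.13 (SE, adjusted p 0.753). Here high FE pigs 1, 4 and 6 were below every low FE pig, and low FE pigs 3, 4 and 5 were above every high FE pig.

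The paired isoforms of subunit VIIa both had a lower mean in high FE. COX7A1, the isoform of heart and skeletal muscle, differed by -0.18 ± 0.12 (SE), with means of 6.62 ± 0.18 in high FE and 6.80 ± 0.18 in low FE (SD, n = 6 each). COX7A2, the widespread isoform, differed by -0.08 ± 0.12 (SE), with means of 9.48 ± 0.18 in high FE and 9.56 ± 0.20 in low FE (SD, n = 6 each). Neither difference stood clear of the spread between pigs of a group. Both probe sets are marked by their suffix as matching several transcripts, so the isoforms may not have been measured apart. The other COX7A1 probe set had a mean of 2.82 and differed by -0.09 ± 0.36 (SE). The other COX7A2 probe set, with a mean of 1.93, was below the filter and differed by 0.10. COX5B, a zinc-binding subunit, differed by -0.15 ± 0.14 (SE) and COX6C, another accessory subunit, by 8.5e-04 ± 0.10 (SE). NDUFA4 differed by 0.15 ± 0.22 (SE) at values near the array background, from 2.64 over 2.76 to 2.91 in high FE and from 2.18 over 2.47 to 3.74 in low FE, with low FE pig 6 far above the other low FE pigs.

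**Figure D2:**
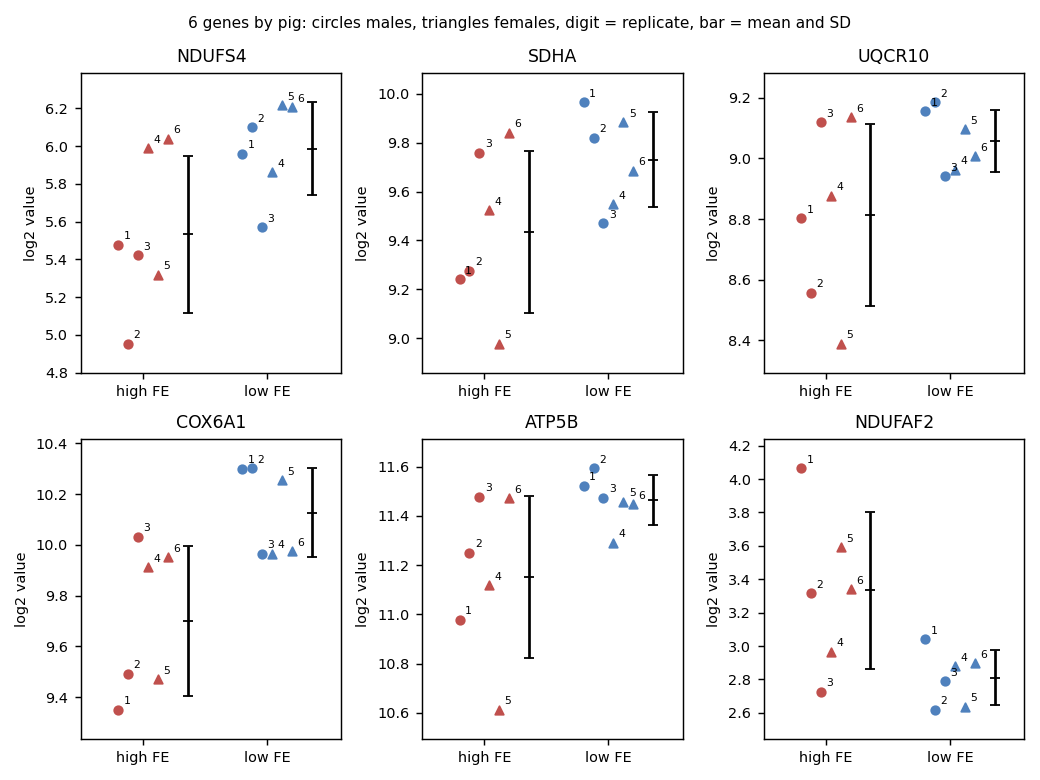
Log2 values of 6 genes in each of the 12 pigs (vertical axes, with a scale of their own), high FE left of low FE. Circles are males, triangles females, digits the pig's number in its group, and bars the mean and SD of 6 pigs. High FE pigs 1, 2 and 5 lie low in NDUFS4, SDHA, UQCR10 and COX6A1 and high in NDUFAF2, and in ATP5B high FE pig 5 is the lowest at 10.61.

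Complex V joins a catalytic F1 head to a proton-conducting membrane part through a stalk. All 12 of its genes that were tested had a lower mean in high FE. Differences ran from -0.31 to -0.01 with a median of -0.13, and none was called. This holds for the probe set chosen for each gene. In ATP5C1, ATP5E, ATP5G2, ATP5G3 and ATP5L, another tested probe set had a difference above 0. Those probe sets had means from 2.59 to 5.72. In the F1 head, ATP5B, the catalytic beta subunit, ran from 10.61 over 11.18 to 11.48 in high FE and from 11.29 over 11.47 to 11.59 in low FE. High FE pigs 3 and 6 lay within the low FE range, and the other 4 were below it. The ATP5B difference was -0.31 ± 0.15 (SE, adjusted p 0.753), and its SD was 0.33 among high FE pigs against 0.10 among low FE pigs.

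ATP5A1, the alpha subunit, differed by -0.17 ± 0.11 (SE, adjusted p 0.753), and ATP5C1, the rotating gamma subunit, by -0.04 ± 0.11 (SE, adjusted p 0.932). The medians were -0.13 over the 4 F1 genes and -0.13 over the 3 stalk genes tested. ATP5O, the subunit at the top of the stalk, differed by -0.14 ± 0.14 (SE) at values from 3.12 over 3.27 to 3.65 in high FE and from 2.98 over 3.54 to 3.86 in low FE.

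The c ring, which turns as protons pass, is made of 1 peptide encoded by 3 genes that differ in their import sequence. ATP5G1 ran from 4.97 over 5.62 to 6.25 in high FE and from 5.62 over 5.82 to 6.66 in low FE, a difference of -0.28 ± 0.21 (SE). ATP5G3 differed by -0.04 ± 0.12 (SE), with values that overlapped almost fully. ATP5G2 had the widest spread of all the genes described, from 2.06 over 4.25 to 5.20 in high FE and from 1.85 over 4.32 to 4.47 in low FE, so that its difference of -0.03 ± 0.60 (SE) says little. High FE pigs 2 and 6 and low FE pig 4 were its low values. Of the genes below the filter, ATP5H of the stalk had a mean of 1.52 ± 0.13 in high FE and 1.43 ± 0.16 in low FE, and ATP5I of the membrane part 1.64 ± 0.50 in high FE and 1.49 ± 0.35 in low FE (SD, n = 6 each).

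Of the 7 genes that are no subunit, 3 had a lower mean in high FE, and the median over the 7 was 0.01. NDUFAF2, an assembly factor of complex I, ran from 2.73 over 3.33 to 4.06 in high FE and from 2.62 over 2.83 to 3.04 in low FE. The high FE pigs 1, 2, 5 and 6 were above every low FE pig, and pig 1 was the highest. The NDUFAF2 difference was 0.52 ± 0.20 (SE, adjusted p 0.753), at values not far above the array background.

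ATP5S, coupling factor B of ATP synthase, ran from 3.74 over 4.13 to 4.21 in high FE and from 3.46 over 3.84 to 3.98 in low FE, a difference of 0.28 ± 0.12 (SE, adjusted p 0.753). All high FE pigs but pig 4 were above every low FE pig. ATP5SL, named for its likeness to ATP5S, ran from 7.19 over 8.03 to 8.69 in high FE and from 8.16 over 8.55 to 8.76 in low FE, a difference of -0.55 ± 0.26 (SE, adjusted p 0.753). In this gene, too, high FE pigs 1, 2 and 5 were below every low FE pig. NDUFAF3, another assembly factor of complex I, differed by -0.26 ± 0.20 (SE, adjusted p 0.768).

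The low values were gathered in a few pigs. As a measure per pig, each tested gene's value was set against its mean over the 12 pigs, and the median over the 57 genes was taken. In high FE pigs 1 to 6 this median deviation was -0.16, -0.14, 0.10, -0.02, -0.33 and 0.12. In low FE pigs 1 to 6 it was 0.22, 0.20, -0.05, -0.06, 0.08 and 0.06. High FE pigs 1, 2 and 5 were thus the 3 lowest of all 12, and high FE pigs 3 and 6 lay above the median of the low FE pigs, which was 0.07.

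Counted by gene, 42, 45, 13, 30, 47 and 12 of the 57 genes were below their 12-pig mean in high FE pigs 1 to 6, and 9, 14, 31, 37, 12 and 17 in low FE pigs 1 to 6. High FE pig 5 had the lowest value of the 12 pigs in 23 genes, and low FE pig 1 the highest value in 20. The complexes did not move by the same amount in high FE pig 5, where the median deviation was -0.44 for complex I, -0.61 for complex II, -0.36 for complex III, -0.13 for complex IV and -0.28 for complex V. In low FE pig 1 the medians were 0.32, 0.19, 0.07, 0.26 and 0.23 for complexes I to V.

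**Figure D3:**
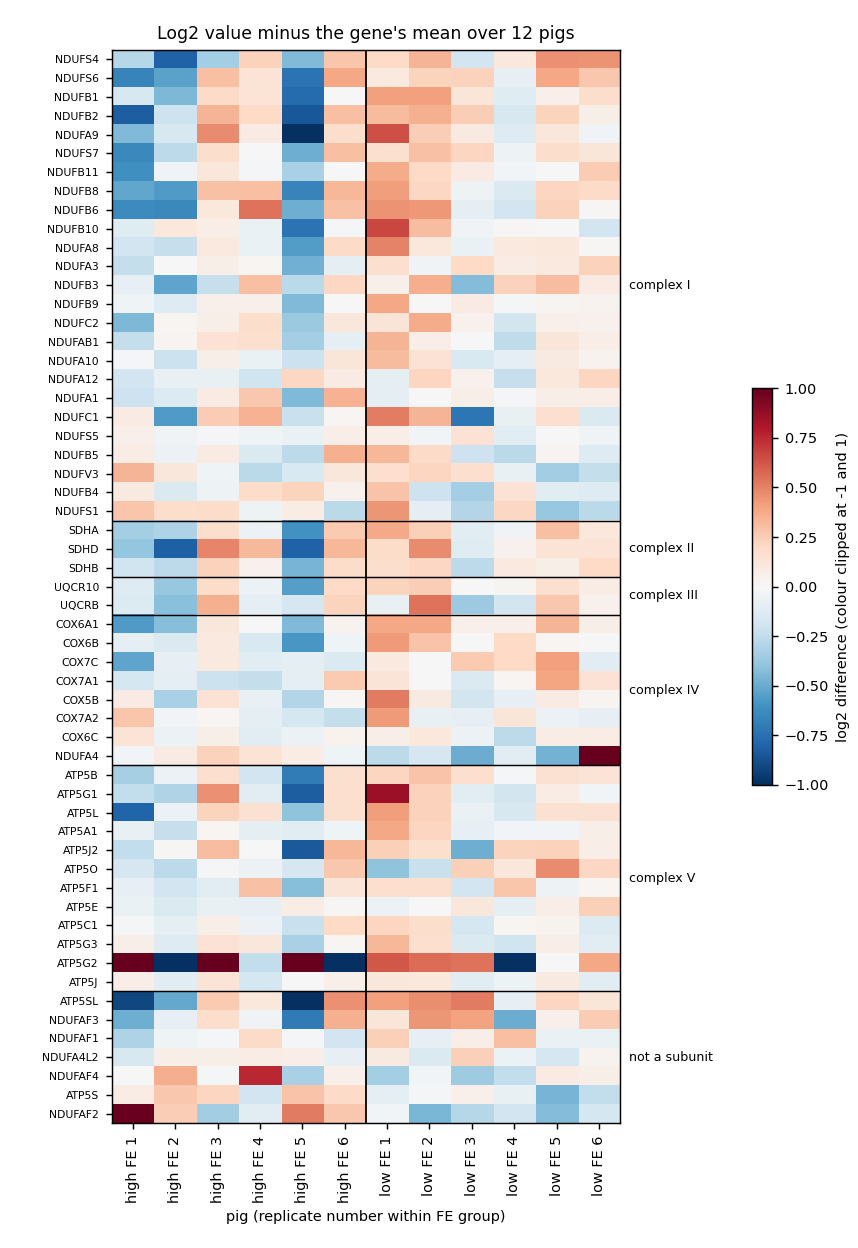
Log2 value of each of the 57 genes tested (rows, by complex) in each pig (columns, high FE left of the line) minus the gene's mean over 12 pigs, with colours clipped at -1 and 1. The columns of high FE pigs 1, 2 and 5 are mostly blue (below the mean). Those of high FE pigs 3 and 6 and of low FE pigs 1, 2, 5 and 6 are mostly red (above it).

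**Figure D4:**
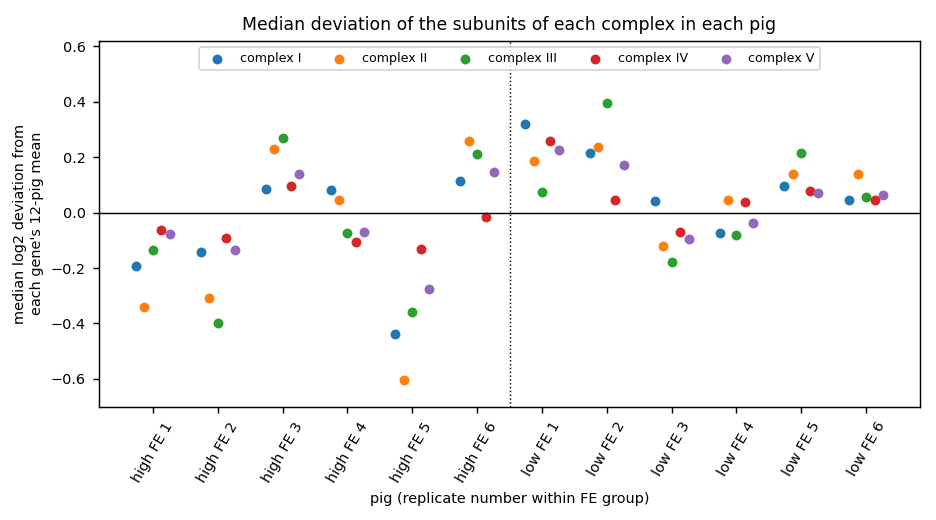
Median log2 deviation from each gene's 12-pig mean (vertical axis) over the subunit genes of each complex, for each pig (horizontal axis), high FE left of the dotted line. In high FE pigs 1, 2 and 5 all 5 complexes lie below 0. All 5 lie above it in high FE pig 3 and in low FE pigs 1, 2, 5 and 6.

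The arrays of high FE pigs 1, 5 and 2 also had the 3 lowest scores on the first principal component of all 33405 probe sets, which held 24.9% of the variance, at -68.0, -64.3 and -36.0, where the other 9 lay between -14.1 and 41.1. The sign of this component was set by the 57 genes, so that they weighed on it positively on average. Without these 3 arrays, with 3 high FE and 6 low FE pigs left, 24 of the 57 genes had a lower mean in high FE and the median difference was 0.02. It was 0.02 for complex I, 0.07 for complex II, 0.07 for complex III, -0.13 for complex IV and 0.02 for complex V. Complex IV had a negative median, with 6 of 8 genes lower in high FE, and the others had a median above 0. The 3 pigs left out were also the lowest in the genes themselves, so a rise of the median difference was fixed by the choice. The values left describe 3 against 6 pigs and are no test of a complex or gene. Among single genes, the difference without the 3 arrays was -0.22 for NDUFS4, -0.14 for COX6A1, -0.16 for COX6B and -0.19 for COX7C, but 0.25 for SDHD, 0.04 for ATP5SL and 2.1e-04 for UQCR10. For NDUFAF2 it was 0.18 and for ATP5S 0.25.

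Leaving out 1 pig at a time kept the median over the 57 genes between -0.22 and -0.12. The complex I median was -0.13 without high FE pig 5, and the complex II median was -0.14 when high FE pig 5 and -0.15 when high FE pig 2 was left out, where the complexes had -0.20 and -0.29 over all 12 pigs. Of 29 named genes, 18 had a difference that moved by over 1.5 times or turned in sign with 1 pig left out, and in 5 of these it turned (ATP5G2, ATP5G3, COX6C, NDUFV3 and UQCRB). Without high FE pig 5 the difference was -0.07 for SDHB, -0.14 for SDHD, -0.19 for SDHA and -0.16 for UQCR10, and without low FE pig 1 it was -0.16 for ATP5G1 and -0.07 for COX5B. NDUFS4, COX6A1, COX6B, COX7C, ATP5B, ATP5SL, NDUFAF2 and ATP5S were not among the 18.

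**Figure D5:**
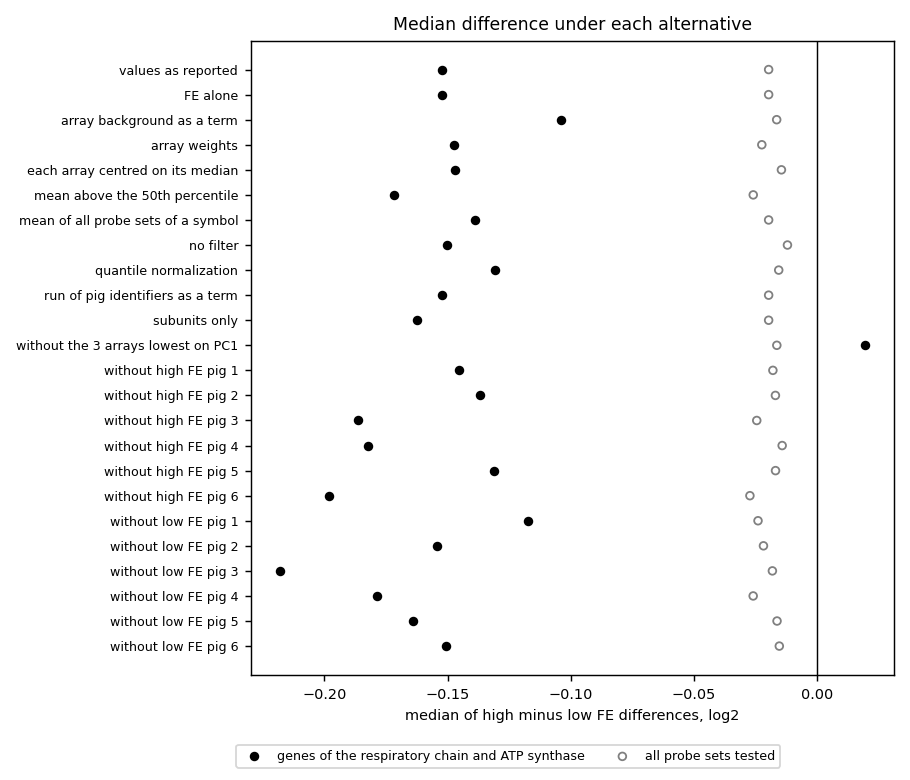
Median of the high minus low FE differences on the log2 scale (horizontal axis) under each processing alternative (rows), for the genes of the respiratory chain and ATP synthase (filled circles) and for all probe sets tested (open circles). The filled circles lie between -0.22 and -0.10 except without the arrays of high FE pigs 1, 2 and 5, at 0.02, and the open circles stay near -0.02.

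Other measures were lower in these pigs than in the other high FE pigs, but did not follow the genes in every pig. The median of the background probe sets was 2.17, 2.29 and 2.16 in high FE pigs 1, 2 and 5, and 2.31 to 2.46 in the other 3 high FE pigs, against 2.25 to 2.53 in low FE pigs. With it as a term in the model, 45 of the 57 genes still had a lower mean in high FE and the median difference was -0.10. The mean log2 value of enterocyte markers was 9.62, 9.10 and 9.02 in high FE pigs 1, 2 and 5, and 9.86 to 10.1 in the other 3 high FE pigs, against 8.49 to 10.3 in low FE pigs. Immune cell lists were also lower in high FE pigs 1, 2 and 5 than in the other 3 high FE pigs. For T and NK cells the means were 6.24 to 6.38 against 6.78 to 7.26, with 6.22 to 6.97 in low FE pigs. For B and plasma cells they were 6.54 to 6.71 against 6.82 to 7.10, with 6.57 to 7.03 in low FE pigs. For macrophages they were 6.20 to 6.46 against 6.48 to 6.68, with 6.35 to 6.83 in low FE pigs. The other marker lists did not part the high FE pigs in this way. Low FE pig 1, with the highest median deviation of the genes, had a background median of 2.25. Low FE pigs 3 and 6 had the lowest enterocyte marker means of the 12 pigs, 8.49 and 8.95, with median deviations of -0.05 and 0.06. The part of array background or of cell composition in the difference was not tested.

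Several marker lists of tissue under or beside the absorbing epithelium also had mostly lower means in high FE, and 0 of their genes were called. The counts are to be read beside the 54% of all probe sets and 58.2% of all named genes with a lower mean in high FE. All 7 markers of Brunner's glands and gastric-type mucosa had a lower mean in high FE, with list means of 6.31 to 9.54 in high FE pigs and 7.35 to 11.4 in low FE pigs. Of 13 smooth muscle markers, 11 had a lower mean in high FE, with list means of 7.54 to 7.91 in high FE pigs and 7.50 to 8.40 in low FE pigs. All 8 goblet cell markers had a lower mean in high FE, with list means of 8.47 to 9.23 in high FE pigs and 8.73 to 9.49 in low FE pigs. Enterocyte markers had a lower mean in high FE for 5 of 15 genes, and their median difference was 0.11. All 10 pancreatic acinar markers had a lower mean in high FE. Their list means lay between 3.82 and 3.96 in high FE pigs. In low FE pigs they lay between 3.82 and 4.17, except in pig 6, which had 6.72. Of the other markers, 8 of 9 for fibroblasts, 5 of 5 for enteric neurons and glia, 6 of 9 for endothelium, 5 of 7 for B and plasma cells, 4 of 6 for macrophages, 3 of 12 for T and NK cells and 5 of 12 for proliferation had a lower mean in high FE. The part of these cells in the subunit values was not tested.

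The subunit genes varied together across pigs, which the choice by name did not use. Over the 12 pigs, the median Pearson correlation between 2 of the 57 genes was 0.33 over 1596 pairs, of which 74.4% were positive. Over all pairs of named genes it was 0.01, with 50.9% positive. All values of a pig come from the same array, and the correlations are given as a description. Pairs of subunits of one complex had a median of 0.46 and pairs from different complexes 0.42, so correlations within a complex were little higher than between complexes. Within complex II the median was 0.89, within complex I 0.47, within complex V 0.37 and within complex IV 0.16.

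After the group means of FE and sex were taken out, the median over all pairs was still 0.33, and without the arrays of high FE pigs 1, 2 and 5 it was 0.22. SDHA and NDUFA9, an accessory subunit of complex I, had the highest median correlation with the other genes, at 0.72 and 0.70. At the other end were NDUFAF2 at -0.45, ATP5S at -0.35 and NDUFS1 at -0.13. The pairs among the 7 genes that are no subunit had a median of -0.08.

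Several genes had more than 1 probe set, which served as a second look at the same gene on the same RNA. Of the 94 probe sets, 86 were tested and 67 of these had a lower mean in high FE. Among the 17 genes with several tested probe sets, 9 had the same sign in all of them. All 4 SDHA probe sets lay between -0.29 and -0.18, all 6 SDHB probe sets between -0.27 and -0.13, and all 3 NDUFS7 probe sets between -0.36 and -0.16. The 2 COX6C probe sets were both above 0. In the other 8 genes (ATP5C1, ATP5E, ATP5G2, ATP5G3, ATP5L, NDUFA1, NDUFB4 and NDUFV3) the probe sets disagreed in sign. The widest disagreement was in ATP5C1, between -0.49 ± 0.47 and 0.32 ± 0.16 (SE), and in ATP5L, between -0.24 ± 0.19 and 0.52 ± 0.48 (SE). These ATP5C1 probe sets had low means of 2.55 and 3.64, where the chosen one had 9.54 and differed by -0.04. The ATP5L probe set at 0.52 had a mean of 3.23, against 6.03 for the chosen one. Of the 59 probe sets that represent the genes, 10 are marked by their suffix as matching several transcripts. These may read more than 1 gene, and are those of NDUFB4, NDUFB8, NDUFC1, SDHA, SDHB, UQCR10, COX7A1, COX7A2, ATP5A1 and ATP5C1.

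The second comparison set males against females over both FE groups. The genes were near evenly divided, and 0 were called (limma, lowest adjusted p 0.975), against 0.021% of all probe sets. Of the 57 genes, 33 had a higher mean in males, against 50.6% of all probe sets, with a median difference of 0.05. At an unadjusted p under 0.05 stood 1 gene, against 4.54% of all probe sets. This was NDUFV3, an accessory subunit of the NADH-binding part of complex I, with 8.31 ± 0.13 in males and 7.99 ± 0.17 in females (SD, n = 6 each). Its difference was 0.32 ± 0.11 (SE, adjusted p 0.975), and the groups overlapped.

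Among the other genes ranked for sex, NDUFS4 had 5.58 ± 0.41 in males and 5.94 ± 0.33 in females, ATP5O 3.24 ± 0.22 in males and 3.52 ± 0.23 in females, and ATP5G1 5.95 ± 0.45 in males and 5.65 ± 0.35 in females (SD, n = 6 each). COX7A2 had 9.61 ± 0.21 in males and 9.43 ± 0.12 in females, and COX6B 8.79 ± 0.22 in males and 8.61 ± 0.27 in females (SD, n = 6 each). None passed, and the adjusted p of each was 0.975.

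The third comparison asked whether the FE difference differed between the sexes. The interaction called 0 of the 57 genes, against 0.00299% of all probe sets, and 0 stood at an unadjusted p under 0.05, against 3.27% (lowest adjusted p 0.998). Within males, 48 of the 57 genes had a lower mean in high FE, against 51.3% of all probe sets, and the median difference was -0.18. Within females, 41 had a lower mean in high FE, against 53.1%, and the median difference was -0.10. Each of these rests on 3 against 3 pigs. Complex I had medians of -0.27 within males and -0.10 within females, and complex IV -0.17 within males and -0.19 within females. NDUFB6, of the membrane arm of complex I, had the interaction farthest from 0 in complex I, with an FE difference of -0.65 ± 0.30 (SE) within males and 0.10 ± 0.30 (SE) within females and an adjusted p of 0.998 for their difference. This gene was singled out after its values were seen.

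Among other genes of mitochondrial energy metabolism, 0 were called in any list. Their shares with a lower mean are to be read beside the 54% of all probe sets and 58.2% of all named genes, and how they differ from the share among the subunits was not tested. Of 7 further electron carriers and regulators, 4 had a lower mean in high FE, and the median difference was -0.08. SQRDL, which feeds electrons from sulphide to ubiquinone, differed by -0.33 ± 0.19 (SE), and ETFA of the electron transfer flavoprotein by 0.28 ± 0.21 (SE). Of 13 assembly factors outside the naming rule, 8 had a lower mean in high FE, with a median of -0.03. In high FE pigs 1, 2 and 5 the mean log2 value of this list was 5.92, 5.99 and 5.76, the 3 lowest of the 12 pigs as for the subunits. BCS1L, which inserts the iron-sulphur protein into complex III, differed by -0.41 ± 0.31 (SE), with means of 6.98 ± 0.77 in high FE and 7.39 ± 0.28 in low FE (SD, n = 6 each), and SCO2, which takes part in copper delivery to complex IV, by -0.18 ± 0.17 (SE).

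Of 13 genes of the citric acid cycle and pyruvate dehydrogenase, 5 had a lower mean in high FE, with a median of 0.02. They included CS, citrate synthase, with 10.05 ± 0.32 in high FE and 10.33 ± 0.08 in low FE (SD, n = 6 each), and SUCLG1 of succinyl-CoA ligase, with 9.45 ± 0.34 in high FE and 9.79 ± 0.25 in low FE (SD, n = 6 each). Of 11 genes of coenzyme Q synthesis, 6 had a lower mean in high FE, with a median of -0.04. COQ9, a lipid-binding protein of that pathway, differed by -0.25 ± 0.14 (SE), and COQ3, a methyltransferase, by 0.20 ± 0.16 (SE).

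Among 15 genes of mitochondrial biogenesis and mitochondrial DNA maintenance, 9 had a higher mean in high FE, with a median of 0.08. SSBP1, which binds single-stranded mitochondrial DNA, had 7.86 ± 0.28 in high FE and 7.51 ± 0.10 in low FE (SD, n = 6 each), a difference of 0.35 ± 0.12 (SE). POLG2, the accessory subunit of the mitochondrial DNA polymerase, had 5.02 ± 0.36 in high FE and 4.53 ± 0.30 in low FE (SD, n = 6 each), a difference of 0.49 ± 0.18 (SE). Both had an adjusted p of 0.753.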

How the data were processed

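Each of 12 pigs gave 1 array of duodenal mucosa. Per the labels' protocols, total RNA was extracted with Qiazol, treated with DNase and column-purified, and labelled with biotin. The submitters' processing notes name GCOS 1.1.1. How background was corrected and how probes were normalized and summarized is not given in the sources used here. Values as deposited were taken as log2, which was read from the values (0.21 to 14.21) and is not stated. Gene symbols came from the array's platform annotation, which can be old, and 26426 of 47845 probe sets had 1 symbol.

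Probe sets with a mean above the 30th percentile were kept (33405), without the 123 control probe sets, and tested in R 4.3.3 by limma 3.58.1 (lmFit and eBayes) in a model of FE and sex, with Benjamini-Hochberg adjustment over all of them and a threshold of 0.05. The interaction came from a model with a mean for each combination of FE and sex, as did the FE differences within a sex. The fit was also run on simulated data with independent noise for each probe set. The differences planted there were larger than those of the genes described, so it says nothing on differences of their size. Alternatives changed the filter, normalization, variance model, array weights, model terms, threshold, probe set per symbol and the pigs included. Promoter sequences were not analysed here.

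The genes and the lists were chosen with earlier results of these data known. Genes were named by a rule: those called, the 3 of each complex with the lowest unadjusted p for FE and the 2 for sex, those below the filter, core subunits and paired isoforms, and the 2 of each list with the lowest unadjusted p for FE. Marker lists are given by counts and levels without these 2, with VIL1 named as a defining marker. Others are ends of a range, genes set apart by their probe sets or correlations, or said to be singled out.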

Additional observations from a re-analysis of the deposited data

Results flagged for a closer look

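In each of the 59 genes, and in the median deviations per pig, the highest and the lowest of the 6 pigs of an FE group were checked for a gap to the others that was wide for the group's range (Dixon's test). This was done for 130 groups, and 12 values stood apart. Chance flags about 1 in 20 groups.

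In complex I, NDUFB9 had 8.12 in high FE pig 5, against 8.43 to 8.62 in the other high FE pigs, and 8.95 in low FE pig 1, against 8.55 to 8.64 in the other low FE pigs. NDUFB10 had 5.20 in high FE pig 5, against 5.82 to 6.05 in the other high FE pigs. NDUFA8 had 7.002 in low FE pig 1, against 6.44 to 6.62 in the other low FE pigs. SDHB of complex II had 9.15 in low FE pig 3, against 9.47 to 9.62 in the other low FE pigs.

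In complex IV, COX6B had 8.12 in high FE pig 5, against 8.55 to 8.80 in the other high FE pigs. COX7A1 had 6.98 in high FE pig 6, against 6.47 to 6.62 in the other high FE pigs. NDUFA4 had 3.74 in low FE pig 6, against 2.18 to 2.57 in the other low FE pigs. In complex V, ATP5G2 of the c ring had 1.85 in low FE pig 4, against 3.84 to 4.47 in the other low FE pigs, and ATP5J2 of the membrane part had 6.59 in low FE pig 3, against 7.14 to 7.31 in the other low FE pigs. ATP5H of the stalk, which lies below the filter, had 1.78 in high FE pig 3, against 1.41 to 1.52 in the other high FE pigs, and 1.74 in low FE pig 6, against 1.29 to 1.42 in the other low FE pigs.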

How the results depend on the processing

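Calls among the 57 genes were 0 in all 24 alternatives, for FE and for sex. The median FE difference over them, -0.15, lay between -0.22 and -0.12 with 1 pig left out and turned to 0.0195 without the arrays of high FE pigs 1, 2 and 5, with the lowest scores on the first principal component. There 24 instead of 47 genes had a lower mean in high FE. The pigs left out were also the lowest in the genes themselves, so a rise was fixed by the choice. The cause was not tested, and 3 high FE pigs remain in that fit. Of 29 named genes, 14 kept their sign in every alternative. Over all probe sets, FE calls were 0 to 1 with 1 pig left out (1 without low FE pig 4). Sex calls, 7 in the model reported, were 6 to 8 with 1 pig left out and 3 when the model held the run of pig identifiers, whose second run holds females only. The median sex difference, 0.05, lay between -0.0166 and 0.0843 with 1 pig left out, with turned signs at -0.0133 without high FE pig 3, -0.0166 without high FE pig 5 and -0.00234 without low FE pig 1. No paired analysis was possible because the labels give no replicate numbers and the numbers used here only name the pigs. Genes near the array background, such as NDUFA4 and NDUFAF2, are limited by it.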
